A study of Homo sapiens with 3 samples.

Results

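The genes described here are those of the proteasome subunits in A549 cells, an established human lung cancer cell line, with and without knockdown of the RNA helicase DDX24. Members were all protein-coding genes whose symbol is PSMA, PSMB, PSMC, PSMD or PSME followed by a number. They were 43 of 58735 genes in the files, and 41 of them averaged 1 or more counts per 1000000 (CPM) over the libraries. The members were 7 alpha and 7 beta genes of the 20S core (PSMA1 to PSMA7 and PSMB1 to PSMB7), 3 inducible catalytic genes (PSMB8, PSMB9 and PSMB10), 2 tissue-restricted core genes (PSMA8 and PSMB11), 20 genes of the 19S regulatory particle and 4 activator genes (PSME1 to PSME4).

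RNA was sequenced in 3 libraries, 1 per condition: Control-sh, DDX24-sh1 and DDX24-sh2, the last 2 carrying different short hairpin RNAs against DDX24. The study asked how DDX24 depletion acts on splicing and autophagy in lung cancer cells. Its methods describe stable lines made with the lentiviral pLKO.1 vector in F12K medium with serum, selected with puromycin at 2 µg/ml and kept at 1 µg/ml. The labels of the hairpins are those of the counts, and the deposited FPKM carry them the other way round, so which hairpin a difference between DDX24-sh1 and DDX24-sh2 belongs to is not known. The methods name an empty vector as control and a figure legend names a control hairpin, and which of them the control library carries is not known here. Each condition has 1 library, so no difference below was tested against the spread between cultures. The interval printed with a ratio is the exact 95% binomial (Clopper-Pearson) interval from the counts, which covers counting error only.

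Library totals were 17218884 (Control-sh), 18337471 (DDX24-sh1) and 17847190 (DDX24-sh2). DDX24, the targeted gene, had 2010, 637 and 765 counts in that order, with log2 ratios to control of -1.75 and -1.47. The mitochondrial share of counts was 4.36%, 5.13% and 7.04%. The line label fitted its keratin genes, with KRT8 between 63926 and 69499 counts and the 5 epithelial genes at 91029, 97135 and 89492, although EPCAM had only 29 to 32 counts. KRT8 and KRT18 held most of that sum, and KRT19 had 1001, 2251 and 2728 counts and CDH1 538, 358 and 261. In contrast the alveolar marker NKX2-1 was at 0 in all libraries, SFTPB had at most 3 counts and SFTPC at most 4. The leukocyte markers PTPRC and CD3E were at 0, and the 5 leukocyte genes summed to 147, 125 and 103 counts, of which CD14 held 139, 108 and 75. The 3 fibroblast genes summed to 140, 175 and 146 counts and the 2 endothelial genes to 12, 14 and 8.

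The proteasome degrades proteins that carry ubiquitin chains. Its 20S core is a stack of rings, with alpha subunits forming the gated outer rings and beta subunits the inner rings, where PSMB5, PSMB6 and PSMB7 hold the active sites. The 19S particle binds ubiquitin chains, removes them and unfolds the substrate with a ring of ATPases. Cells exposed to interferon replace the constitutive catalytic subunits by PSMB8, PSMB9 and PSMB10, which favours peptides for antigen presentation, and the transcription factors NFE2L1 and NFE2L2 act on antioxidant response elements in many proteasome gene promoters.

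Short windows of member promoters are shown as examples of letters that match the cores of regulatory elements. Whether any of them is used in these cells was not tested. Promoters, from 250 bases before to 50 after the annotated start, were taken from RefSeq (GRCh38.p14), which held 45 promoters of 38 members and none of PSMA7, PSMB1, PSMB6, PSMB7 and PSMD4. Each line gives 30 bases, 5′ to 3′ on the strand of the gene, with the matched letters in capitals. The first 4 hold the antioxidant response element core TGACNNNGC, the next 2 the interferon-stimulated response element core, which is GAAA, any pair of bases and GAAA, and the last the gamma-activated site core TTCNNNGAA.

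PSMA4 (chr15:78540650-78540679, plus strand): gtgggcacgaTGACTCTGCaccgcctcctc
PSMB3 (chr17:38752627-38752656, plus strand): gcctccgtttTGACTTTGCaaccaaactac
PSMD12 (chr17:67366723-67366752, minus strand): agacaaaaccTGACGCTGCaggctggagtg
PSMD5 (chr9:120843037-120843066, minus strand): tggctacagtTGACACGGCcctaacggagg
PSMB10 (chr16:67936852-67936881, minus strand): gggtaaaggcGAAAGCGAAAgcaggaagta
PSME2 (chr14:24146619-24146648, minus strand): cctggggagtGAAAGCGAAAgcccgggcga
PSMB8 (chr6:32844093-32844122, minus strand): aactgtccttTTCTCGGAAaaggcaggggg

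Searched on both strands, TGACNNNGC was in 13 of the 45 member promoters (28.9%) and in 13.3% of all 35116 promoters. The interferon-stimulated core was in 6 member promoters (13.3%) against 3.57% of all. It was found in PSMA4, PSMB4, PSMB8, PSMB10, PSME1 and PSME2, so that 2 of the 3 inducible genes and both genes of the interferon-inducible activator held it and none of the 19 genes of the 19S particle with an entry did. TTCNNNGAA was in 8 member promoters (17.8%) against 7.66%, and CCAAT in 19 (42.2%) against 34.6%. A match to letters is a description of the window and not a binding site. The median GC content was 61.3% in member promoters and 58.7% in all promoters.

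Levels between genes were compared per length, as FPKM (fragments per kilobase of exon per 1000000). The core genes ran from 0.743 FPKM (PSMA6) to 147 FPKM (PSMB3) in Control-sh, with a median of 35.5. The 19S genes ran from 0.936 FPKM (PSMD9) to 116 FPKM (PSMC4), with a median of 28.8. Subunits that the particle holds in equal number therefore had recorded levels 198-fold apart in the core, or 73.5-fold apart by the length of the principal transcript, with PSMA2 lowest. In DDX24-sh1 and DDX24-sh2 the core again had PSMA6 lowest, at 0.877 and 0.758 FPKM, and PSMA7 highest, at 158 and 161 FPKM.

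**Figure D1:**
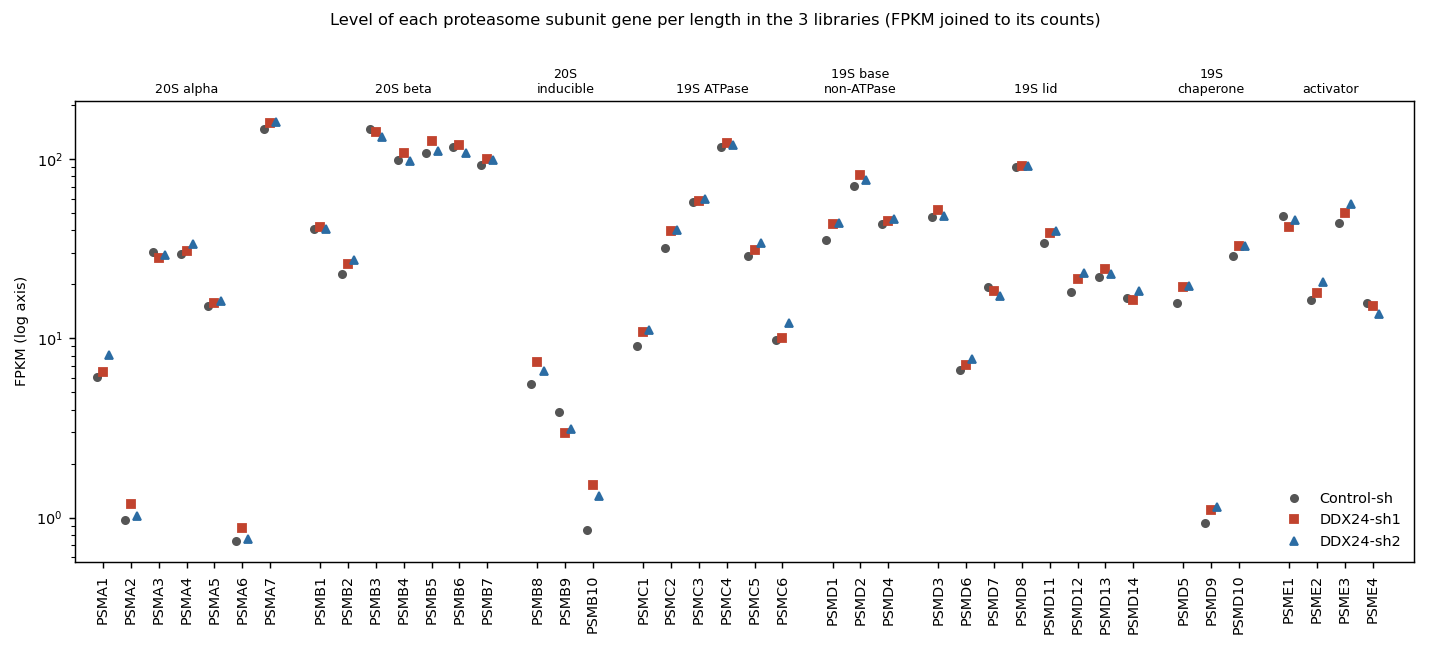
FPKM (log axis) of the 41 members past the filter of 1 CPM, by subunit class, in Control-sh (circles), DDX24-sh1 (squares) and DDX24-sh2 (triangles). Differences between genes exceed those between libraries, and PSMA2, PSMA6, PSMB10 and PSMD9 sit near 1 FPKM.

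The lowest values belonged to genes that share exons with another annotated gene on the same strand. In the GENCODE 29 annotation (GRCh38), 81.0% of the bases of the principal transcript of PSMA6 (chr14:35278633-35317493, plus strand) are also exon of AL121594.1. The share was 53.2% for PSMA1 (chr11:14504874-14643635, minus strand, with AC018523.2) and 52.5% for PSMA2 (chr7:42916857-42932223, minus strand, with AC010132.3). It was 45.3% for PSMB10 (chr16:67934502-67937087, minus strand, with AC040162.1) and 43.8% for PSMD9 (chr12:121888731-121918297, plus strand, with WDR66 and AC069503.2). No other member past the filter shared more than 0.0712% of its principal transcript in this way.

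In the order control, DDX24-sh1 and DDX24-sh2, used for all counts below, PSMA6 had 83, 104 and 89. PSMA2 had 89, 116 and 98 counts, and PSMD9 had 141, 176 and 182. PSMA6, PSMB10, PSMD9 and PSMA2 were the 4 lowest of the 41 members by FPKM in Control-sh, and PSMA1 at 6.11 FPKM stood seventh from the lowest. The overlapping genes held few counts themselves, at most 4 for the partner of PSMA6, 2 for that of PSMA2, 0 for that of PSMA1 and 36 for those of PSMB10 and PSMD9. Without PSMA1, PSMA2 and PSMA6 the core genes spanned 9.67-fold in Control-sh, from PSMA5 at 15.2 FPKM to PSMB3, and the SD of log2 FPKM was 1.19 in place of 2.52. With the length of the principal transcript in place of all exons the SD over all 14 core genes was 2.09. How reads falling in 2 genes were counted is not given in the sources used here, and its part in these low levels was not tested. The levels of these 5 genes are therefore given as recorded, and their ratios between libraries rest on few counts except for PSMA1.

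Across the members, both shRNA libraries had slightly more proteasome subunit RNA than the control, and few single genes differed by much. Counts on the 43 genes summed to 88762, 101837 and 100911, which is 0.515%, 0.555% and 0.565% of each library. The log2 ratio of this sum was 0.10 (interval 0.09 to 0.11) with the first hairpin and 0.10 (0.09 to 0.12) with the second. The median member had a log2 ratio of 0.10 in each shRNA library, where the median of all 13984 genes past the filter was -0.02 and -0.03. In bulk RNA, fewer cells with a transcript and less of it per cell cannot be told apart. Both ratios use the same control library, so a high or low control count moves them together.

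Of the 41 members, 30 (73.2%) were above the control in both shRNA libraries, against 34.6% of all genes. Another 6 were below it in both, against 40.2%, and 5 went opposite ways. The counting interval lay above 0 in both libraries for 14 members (34.1%), against 14.0% of all genes, and below 0 in both for 3, against 20.6%. The 3 were PSMB3, PSMB9 and PSME4. Intervals narrow with depth, and among the 9661 genes that averaged 10 CPM or more the shares were 16.1% and 25.8%.

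The members kept close to the control. In both libraries 27 of 41 (65.9%) were within 1.2-fold, against 37.6% of all genes and 47.0% of those that averaged 10 CPM or more. The SD of the log2 ratios over members was 0.18 with the first hairpin and 0.19 with the second, and over all genes 0.47 and 0.52. Over genes that averaged 10 CPM or more it was 0.37 and 0.40. Only PSMB10 was at least 1.5-fold higher in both libraries, against 4.23% of all genes. None was at least 1.5-fold lower in both, against 4.72%. Among genes that averaged 10 CPM or more, which leaves out PSMB10, the shares of all genes were 1.66% and 3.84%.

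**Figure D2:**
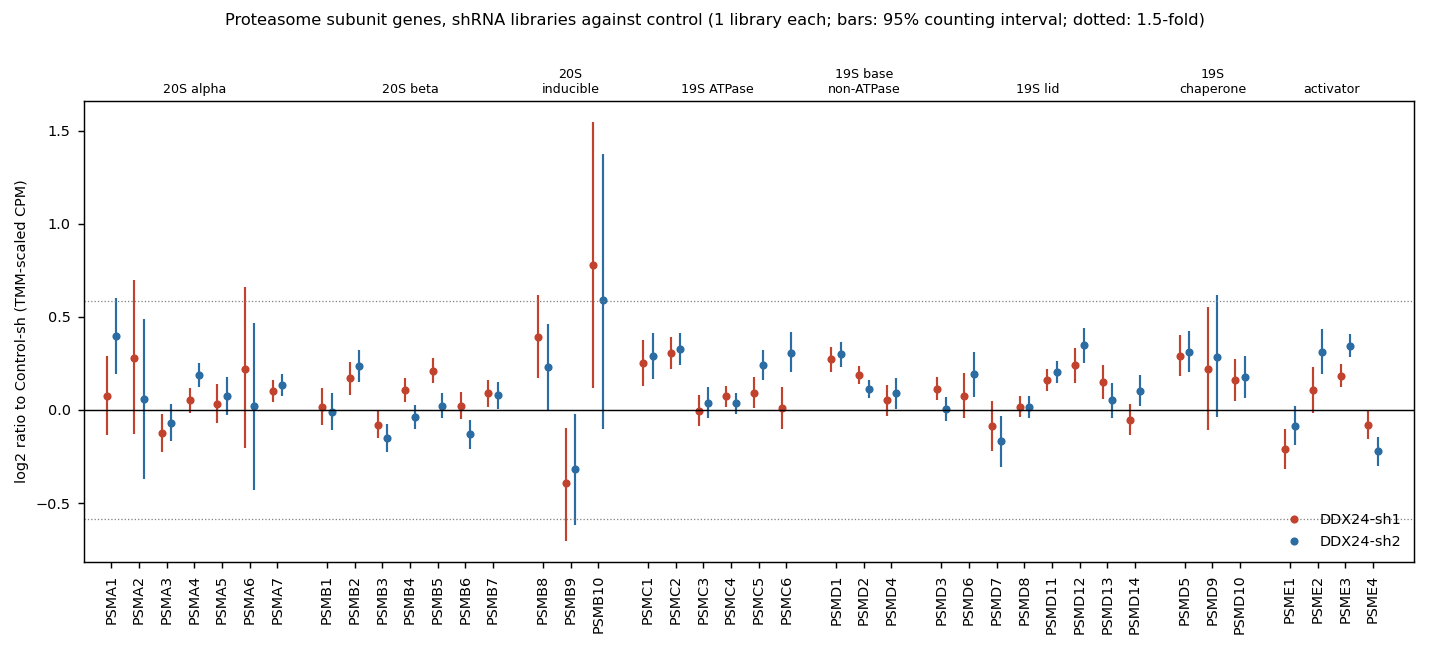
Log2 ratio to Control-sh of TMM-scaled CPM for 41 members in DDX24-sh1 (red) and DDX24-sh2 (blue), 1 library each, with 95% counting intervals as bars and 1.5-fold as dotted lines. Most points lie between 0 and 0.4, PSMB10 is highest with the widest bars, and PSMB9 is lowest.

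The 20S core was slightly above control in both libraries. Its 14 genes summed to 30653, 34478 and 33407 counts, with log2 ratios of 0.07 (0.05 to 0.09) and 0.04 (0.02 to 0.07). The median gene had 0.08 and 0.04. Of the 14, 9 (64.3%) were higher in both libraries, against 34.6% of all genes. PSMA3 and PSMB3 (14.3%) were lower in both, against 40.2%, and PSMB1, PSMB4 and PSMB6 went opposite ways. Without PSMA1, PSMA2 and PSMA6 the medians were 0.05 and 0.02. The size of the DDX24-sh2 sum depended on scaling: it was 0.0724 with total counts and 0.1133 with totals outside the mitochondrial chromosome. Under the latter 11 of the 14 genes (78.6%) were higher in both libraries in place of 9 (64.3%), against 39.7% of all genes.

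The alpha genes, whose products gate entry to the core, summed to 11532, 12786 and 13294 counts, with log2 ratios of 0.05 and 0.12. PSMA1 had 346, 391 and 482 counts and log2 ratios of 0.08 (-0.14 to 0.29) and 0.40 (0.20 to 0.60), the highest mean ratio among alpha genes. PSMA3 had 1612, 1584 and 1626 counts and log2 ratios of -0.12 (-0.23 to -0.02) and -0.07 (-0.17 to 0.03), the lowest. PSMA7, the most abundant alpha gene, had 4381, 5035 and 5091 counts and was the only alpha gene with both intervals above 0, at log2 ratios of 0.10 and 0.14. PSMA4, shown above with an antioxidant response element core, had 3528, 3917 and 4244 counts and log2 ratios of 0.05 (-0.01 to 0.12) and 0.19 (0.12 to 0.25).

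The beta genes summed to 19121, 21692 and 20113 counts, with log2 ratios of 0.08 (0.05 to 0.11) in DDX24-sh1 and -0.01 (-0.04 to 0.02) in DDX24-sh2. PSMB5, the chymotrypsin-like subunit, had 3264, 4047 and 3509 counts and log2 ratios of 0.21 (0.14 to 0.28) and 0.02 (-0.05 to 0.09), so that only DDX24-sh1 stood apart from control. PSMB6, the caspase-like subunit, had 2912, 3172 and 2811 counts and log2 ratios of 0.02 (-0.05 to 0.10) and -0.13 (-0.21 to -0.06). PSMB7, the trypsin-like subunit, had 2839, 3238 and 3169 counts and log2 ratios of 0.09 and 0.08. With TMM scaling the 3 catalytic genes thus did not follow a single pattern across the libraries. The beta ratios are given with this scaling only. For the whole core, totals outside the mitochondrial chromosome moved the DDX24-sh2 sum from 0.0434 to 0.1133.

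Among the structural beta genes, PSMB2 had 1902, 2295 and 2369 counts and the highest mean ratio, at 0.17 (0.08 to 0.26) and 0.24 (0.15 to 0.32). PSMB3 had 2977, 3021 and 2838 counts and the lowest, at -0.08 (-0.15 to -0.01) and -0.15 (-0.22 to -0.07). PSMB3 also carries the antioxidant response element core printed above. All 13 members with these letters are set beside the others further below, and a link between the letters and the ratios was not tested.

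The tissue-restricted core genes were at the limit of detection. PSMA8, a testis form of an alpha subunit, had 0 counts in every library. PSMB11, the thymus form of a catalytic subunit, had 0, 1 and 1 counts. Up to 3 counts in a library are compatible with a recorded count of 0, and no ratio is given for either gene.

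The 19S particle was more evenly above control than the core. Its 20 genes summed to 48476, 56691 and 56434 counts, with log2 ratios of 0.13 (0.11 to 0.14) and 0.14 (0.12 to 0.16), or 1.09-fold and 1.10-fold. The median gene had 0.13 and 0.18, and 0.09 and 0.11 without the assembly chaperone genes PSMD5, PSMD9 and PSMD10. The summed ratios without these 3 genes were 0.12 and 0.13. Of the 20 genes, 17 (85.0%) were higher in both libraries, against 34.6% of all genes. PSMD7 was lower in both (5.0%, against 40.2%), and PSMC3 and PSMD14 went opposite ways. Both intervals lay above 0 for 9 genes (PSMC1, PSMC2, PSMC5, PSMD1, PSMD2, PSMD5, PSMD10, PSMD11 and PSMD12), or 45.0%, against 14.0% of all genes. They lay below 0 for none, against 20.6%. The intervals of the 19S and the core sums did not overlap in either library, which concerns counting error alone. With totals outside the mitochondrial chromosome the DDX24-sh2 sum was 0.2085, and 18 of 20 genes were higher in both, against 39.7% of all genes.

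The ATPase genes, which drive unfolding, summed to 13349, 15412 and 15795 counts, with log2 ratios of 0.11 and 0.16. PSMC2 had 1935, 2561 and 2569 counts, with the highest ratios of the class at 0.30 (0.22 to 0.39) and 0.33 (0.24 to 0.41). PSMC3 had 2254, 2409 and 2449 counts, with the lowest at -0.0039 (-0.09 to 0.08) and 0.04 (-0.04 to 0.12). PSMC6 differed between the hairpins, with 1258, 1358 and 1648 counts, or log2 ratios of 0.01 and 0.31. PSMC1 had 954, 1217 and 1234 counts and log2 ratios of 0.25 and 0.29, but 75.8% of its exon bases lie opposite the gene NRDE2 on the other strand, and whether the counts used strand is not given in the sources used here.

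The non-ATPase genes of the base summed to 11956, 14583 and 14118 counts, with log2 ratios of 0.19 and 0.16. PSMD1, a scaffold subunit, had 3138, 4063 and 4084 counts and the highest ratios, at 0.27 (0.21 to 0.34) and 0.30 (0.23 to 0.37). PSMD2, the other large scaffold and the member with the most counts, had 6580, 8035 and 7516 counts and log2 ratios of 0.19 and 0.11. PSMD4, a ubiquitin receptor, had 2238, 2485 and 2518 counts and the lowest ratios, at 0.05 (-0.03 to 0.13) and 0.09 (0.01 to 0.17). All 3 of these non-ATPase genes were above control in both libraries, against 34.6% of all genes, but the DDX24-sh1 interval of PSMD4 included 0.

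The lid genes, which include the deubiquitinase PSMD14, summed to 20622, 23501 and 23321 counts, with log2 ratios of 0.09 and 0.10. PSMD12 had 1654, 2092 and 2225 counts, with the highest ratios of the lid at 0.24 (0.15 to 0.33) and 0.35 (0.25 to 0.44). PSMD7, the partner of PSMD14, had 903, 912 and 850 counts, with the lowest at -0.09 (-0.22 to 0.05) and -0.17 (-0.30 to -0.03). PSMD14 itself had 2218, 2293 and 2521 counts and log2 ratios of -0.05 (-0.14 to 0.03) and 0.10 (0.02 to 0.19). PSMD8 was nearly level, with 4777, 5184 and 5106 counts, or log2 ratios of 0.02 in each library.

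The genes of the base assembly chaperones, which leave before the particle is complete, had the highest summed ratios of the 19S classes. They summed to 2549, 3195 and 3200 counts, with log2 ratios of 0.23 (0.15 to 0.30) and 0.25 (0.17 to 0.32). PSMD5 had 1191, 1561 and 1564 counts and log2 ratios of 0.29 (0.18 to 0.40) and 0.31 (0.20 to 0.42). PSMD10, also known as gankyrin, had 1217, 1458 and 1454 counts and log2 ratios of 0.16 (0.05 to 0.27) and 0.18 (0.07 to 0.29). PSMD9, with the shared exons described above, was at 0.22 and 0.28 with intervals that included 0.

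The inducible catalytic genes were rare in all 3 libraries and went in different directions. Together they had 518, 621 and 573 counts, with log2 ratios of 0.16 (-0.01 to 0.33) and 0.06 (-0.11 to 0.24). PSMB8 (chr6:32840717-32844703, minus strand) had 287, 404 and 356 counts and log2 ratios of 0.39 (0.17 to 0.62) and 0.23 (0.0017 to 0.46). PSMB9 (chr6:32844136-32859585, plus strand) had 204, 166 and 173 counts and log2 ratios of -0.39 (-0.70 to -0.09) and -0.32 (-0.62 to -0.02). PSMB8 was thus higher and PSMB9 lower than control with both hairpins. PSMB10 had 27, 51 and 44 counts and log2 ratios of 0.78 (0.12 to 1.55) and 0.59 (-0.10 to 1.37). The PSMB10 difference passed 1.5-fold in both libraries, but its interval included 0 in DDX24-sh2 and its overlapping gene AC040162.1 held 18, 11 and 36 counts.

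PSMB8 and PSMB9 are neighbours on chromosome 6, and the ratio of their counts within a library does not depend on how the libraries are scaled. There were 1.41 PSMB8 counts per PSMB9 count in Control-sh (1.17 to 1.69), 2.43 in DDX24-sh1 (2.03 to 2.93) and 2.06 in DDX24-sh2 (1.71 to 2.48). Both shRNA intervals lay above that of the control. Of the exon bases of PSMB8, 20.6% lie opposite PSMB8-AS1 or PSMB9, and of those of PSMB9, 5.66% overlap PSMB8-AS1 or PSMB8. TAP1, a peptide transporter gene, lies within the annotated span of PSMB9 on the other strand and starts from the same promoter region. TAP1 counts per PSMB9 count were alike, with overlapping intervals, at 5.39 (4.64 to 6.29), 5.71 (4.84 to 6.78) and 5.61 (4.76 to 6.63). The log2 ratios of TAP1 itself were -0.31 and -0.26.

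Each inducible gene was recorded at a small share of the constitutive gene it replaces. Per length, PSMB8 was at 5.18% of PSMB5 in control (4.57 to 5.84), 5.88% with the first hairpin (5.29 to 6.51) and 5.97% with the second (5.34 to 6.66), with overlapping intervals. PSMB9 was at 3.30% of PSMB6 (2.85 to 3.81), 2.47% (2.1 to 2.88) and 2.90% (2.47 to 3.38). PSMB10 was at 0.917% of PSMB7 (0.603 to 1.34), 1.52% (1.13 to 2.0) and 1.34% (0.971 to 1.80). The PSMB10 level is given as recorded, and the part of its shared exons in these low shares was not tested. The inducible subunits thus stayed below 6% of their counterparts by this length, and with the length of the principal transcript the highest share was 11.7%, of PSMB8 in DDX24-sh2.

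The activators bind the ends of the core in place of the 19S particle. Their 4 genes summed to 9115, 10046 and 10496 counts, with log2 ratios of 0.04 (-0.0006 to 0.08) and 0.12 (0.08 to 0.16), but went different ways. With totals outside the mitochondrial chromosome the second was 0.1927, and from FPKM under the labels as given the first was 0.1319. PSME1 and PSME2, the paired subunits of the interferon-inducible activator, had 1465, 1358 and 1461 counts and 1010, 1166 and 1328 counts. The log2 ratios were -0.21 (-0.32 to -0.10) and -0.08 (-0.19 to 0.02) for PSME1, and 0.11 (-0.02 to 0.23) and 0.31 (0.20 to 0.43) for PSME2. PSME2 counts per PSME1 count were 0.689 (0.636 to 0.747) in Control-sh, 0.859 (0.793 to 0.929) in DDX24-sh1 and 0.909 (0.843 to 0.980) in DDX24-sh2, so that both shRNA libraries lay above control. PSME2 has 2 near-identical processed pseudogenes with 6 to 10 counts.

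PSME3, a nuclear activator, had 3862, 4705 and 5190 counts and log2 ratios of 0.18 (0.12 to 0.25) and 0.35 (0.29 to 0.41), the highest of the class. PSME4, the large activator linked to histone degradation, had 2778, 2817 and 2517 counts and the lowest, at -0.08 (-0.16 to -0.0036) and -0.22 (-0.30 to -0.14). Of the exon bases of PSME3, 5.82% lie opposite BECN1.

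The hairpins were also set against each other, which does not use the control library. The counting interval of DDX24-sh2 against DDX24-sh1 lay above 0 for 9 of the 41 members (22.0%), against 21.0% of all genes, and below 0 for 7 (17.1%), against 23.8%. The 9 were PSMA1, PSMA4, PSMC5, PSMC6, PSMD12, PSMD14, PSME1, PSME2 and PSME3. The 7 were PSMB4, PSMB5, PSMB6, PSMD2, PSMD3, PSMD13 and PSME4, of which 3 are core beta genes. The largest of these differences was that of PSMA1, at a log2 ratio of 0.32 (0.13 to 0.52). Among genes that averaged 10 CPM or more the shares above and below 0 were 23.5% and 28.5%. The hairpins were compared with TMM scaling only. The upper bounds of PSMD2 and PSMD13 lay close to 0, at -0.0317 and -0.0091, so that the names can depend on scaling.

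Members with and without each set of promoter letters were set side by side. The 13 members past the filter with TGACNNNGC had median log2 ratios of 0.09 and 0.19, and the 23 without it 0.16 and 0.11. The 18 with CCAAT had 0.06 and 0.07, and the 18 without it 0.17 and 0.26, higher in both libraries. The 6 with the interferon-stimulated core had 0.11 and 0.21, and the 30 without it 0.13 and 0.11. The 7 with TTCNNNGAA had 0.19 and 0.06, and the 29 without it 0.09 and 0.19.

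Genes that act beside the proteasome were taken from lists outside the naming rule. Of the 6 genes for transcription factors of proteasome genes and their processing, 4 were lower in both shRNA libraries, against 40.2% of all genes. None was higher in both, against 34.6%. Among the 4, DDI2 was at log2 ratios of -0.20 (-0.38 to -0.01) and -0.01 (-0.19 to 0.17). NFE2L1, the main activator of proteasome genes when the proteasome is inhibited, had 5801, 6432 and 5533 counts. Its log2 ratios were 0.05 (-0.0023 to 0.10) and -0.15 (-0.20 to -0.10), so that it was slightly lower in DDX24-sh2 alone. NFE2L2, the antioxidant response factor, had 2910, 1713 and 1781 counts and log2 ratios of -0.86 (-0.95 to -0.78) and -0.79 (-0.87 to -0.70). MAFK, a small MAF partner of both factors, had 4562, 1770 and 1346 counts and log2 ratios of -1.46 and -1.84, and MAFG had 3203, 2283 and 2528 counts with -0.59 and -0.42. NFE2L2 and MAFK passed 1.5-fold lower in both libraries, against 4.72% of all genes. These are RNA levels, and whether they bear on the proteasome genes was not tested.

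The 7 genes for core assembly and inhibition had median log2 ratios of -0.07 and 0.06. POMP, the maturation factor of the core, had 1217, 1504 and 1427 counts and log2 ratios of 0.21 and 0.15, and PSMG3, a core assembly chaperone, had 820, 684 and 659 counts and -0.36 and -0.40. The 6 other genes of proteasome-bound proteins had medians of -0.11 and 0.02. Among them SEM1, a small lid subunit named outside the rule, had 844, 1058 and 1035 counts and log2 ratios of 0.23 and 0.21, and the ubiquitin receptor ADRM1 had 1652, 1717 and 1680 counts with -0.04 and -0.06. The 11 ubiquitin and shuttle genes had medians of 0.05 and 0.09, with the segregase VCP at 11462, 13932 and 13485 counts and log2 ratios of 0.18 and 0.15.

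The 12 antigen processing genes had median log2 ratios of 0.18 and -0.06. NLRC5, an activator of class I antigen presentation genes, had 101, 212 and 227 counts and log2 ratios of 0.96 (0.62 to 1.33) and 1.07 (0.74 to 1.44). NLRC5 was the only gene of this list at least 1.5-fold higher in both, against 4.23% of all genes. TAPBP had 2625, 4158 and 2717 counts and stood above control in DDX24-sh1 alone. Of the 12 genes, 5 were higher in both libraries, against 34.6% of all genes, and 4 were lower in both, against 40.2%. The other 3 went opposite ways. These counts are near the shares of all genes and do not set the list apart in either direction. PSMB8, PSMB9 and PSMB10 did not share a direction either.

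**Figure D3:**
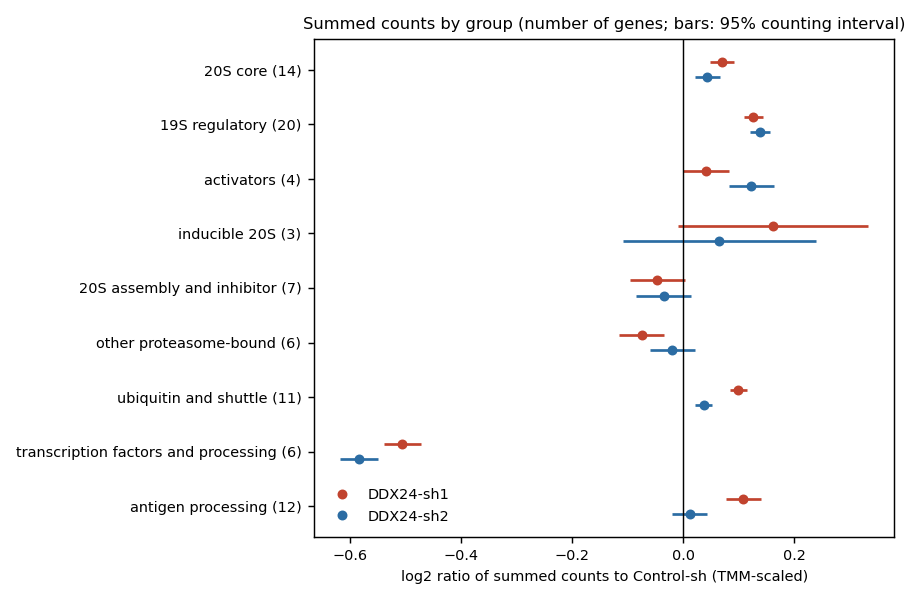
Log2 ratio to Control-sh of the summed, TMM-scaled counts of each group in DDX24-sh1 (red) and DDX24-sh2 (blue), with 95% counting intervals as bars and the number of genes in brackets. The 19S particle lies at 0.13 and 0.14, the 20S core at 0.07 and 0.04, and the transcription factor list at -0.51 and -0.58.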

How the data were processed

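The authors deposited whole-number counts per gene without normalization, and FPKM values per gene, for each of 3 libraries. The submitters' processing notes name Bowtie2 2.0.6, TopHat2 2.0.9, Cufflinks 2.1.1 and Cuffdiff 2.1.1. Which tool made which values, strandedness and the treatment of shared reads are not given in the sources used here. All 58735 genes matched GENCODE 29 in start and end.

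The deposited FPKM were proportional to count over length within 1% for 100% of 11641 genes with at least 50 counts only when the 2 shRNA labels were exchanged (5.33% and 5.32% as given). FPKM were joined to counts on that basis, and which label is right is not known. The doubt covers every value given for a single hairpin, counts and ratios included.

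Counts were scaled by TMM (edgeR 4.0.16, R 4.3.3) and ratios computed from log2 CPM, adding a prior count of 2. No p-value was computed. Without molecular identifiers, reads do not stand for independent molecules. Copies were searched with BLAST 2.17.0. The members, lists and motifs were chosen with earlier results of these data known, and genes were named by class extremes of the mean ratio, as well as for their place in the inducible and activator groups. SciPy 1.17.1 and matplotlib 3.10.9 in Python 3.11.15 were used, and the steps were tested on simulated data. Alternatives were DESeq2 1.42.0 size factors, total counts, other prior counts, filters, folds, members and FPKM as log2(FPKM + 0.1). The alternatives that leave out PSMA1, PSMA2 and PSMA6, PSMD9 or PSMB10, the principal transcript length and the bound of 1.2-fold were chosen after seeing the data. Some genes of these lists are not reported here.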

Additional observations from a re-analysis of the deposited data

How the results depend on the processing

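Ratios were recomputed for all members, the 20S core, the 19S particle, the inducible genes, the activators, PSMB8, PSMB9 and PSMB10. With DESeq2 size factors each of these kept its direction and stayed within its counting interval (for medians, that of a typical member). None of them changed direction under any alternative run. Single members could change side. With DESeq2 size factors 31 of 41 members were higher in both libraries in place of 30, against 35.9% of all genes. In the 19S particle 18 of 20 were, in place of 17. Sums and medians of the smaller classes, such as the beta genes, and of the lists outside the rule were not recomputed. Totals outside the mitochondrial chromosome took PSMA3 off the members lower in both libraries and turned all genes from 34.6% higher and 40.2% lower in both to 39.7% and 35.1%. Scaling by total counts moved the DDX24-sh2 sum of the 20S core to 0.0724 and of the 19S particle to 0.1676. With totals outside the mitochondrial chromosome these were 0.1133 and 0.2085, the DDX24-sh1 sum of the 19S particle was 0.1466 and the DDX24-sh2 sum of the activators was 0.1927, with the median of all genes at 0.0434 in DDX24-sh2. With FPKM under the labels as given, the DDX24-sh2 sums were 0.0829 for the core and 0.0536 for the activators, the DDX24-sh1 sums were 0.1477 for the 19S particle and 0.1319 for the activators, and the activator median in DDX24-sh1 was 0.1231. The single member at least 1.5-fold higher in both, PSMB10, was lost (0 members) with FPKM under either labelling, with a filter of 10 CPM and at 2-fold, where FPKM carries a pseudocount of 0.1 and the filter removes the gene. The share of all genes at least 1.5-fold higher was 1.66% with the filter of 10 CPM. A prior count of 0.5 was not run for sums, which use no prior. No paired analysis was possible because each condition has 1 library and no test was made. Leaving out a replicate was not possible for the same reason. Depth limits PSMB10, PSMA2, PSMA6 and PSMD9, and the variation between cultures is unknown.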

Other observations

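Some members have near-identical processed copies elsewhere in the genome, to which reads can be assigned. The copies of PSMC6, up to 98.3% identical over the aligned bases, held 52, 79 and 68 counts (control, then the hairpins in order), and those of PSMD4, up to 97.2% identical, held 26, 29 and 30. The copies of PSMB3, up to 92.9% identical, held 0 counts in each library. Of the 43 members, 19 had neither such a copy nor an exon overlapping another gene.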
